A study of Mus musculus with 19 samples.

Results

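The nuclear pore genes and the transport receptor genes are described here: the protein-coding genes of the deposited table whose symbol is Nup followed by a digit, or Kpna, Kpnb, Ipo, Xpo or Tnpo followed by a digit. The rule gives 43 of the 53379 gene rows, with 21 nucleoporins and 22 karyopherins. It works on symbols alone, so nucleoporins and karyopherins with other names are not among the 43 and are given as separate lists. Of the 43, 41 passed the filter on low values (at least 1 FPKM in 2 or more of the 19 embryos), and Kpna7 and Nup210 did not. All 43 had at least 1 count in every embryo.

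Single B6D2F1 mouse embryos were profiled by polyA RNA-seq at 96 hours after insemination. They came from IVF between Alyref+/- mice (2 Alyref KO morulae and, of non-KO embryos, 3 morulae and 3 blastocysts), between Gabpb1+/- mice (3 morulae labelled Gabpb1 KO and, of non-KO embryos, 2 morulae and 3 blastocysts) or between WT mice (3 WT blastocysts). Non-KO stands for the label WT or hetero, which does not separate those genotypes. All embryos were grown in KSOM, a culture medium for preimplantation embryos, and had the zona pellucida removed before lysis. KO embryos were recognised by the submitters from missing reads over the deleted region in the same libraries. No KO blastocyst and no WT morula is among the samples, so stage can be compared in non-KO embryos alone. Each embryo is 1 library, and each cross had its own fertilisation, so cross and fertilisation cannot be told apart.

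The nuclear pore complex is the channel through which all exchange between nucleus and cytoplasm passes. Its scaffold is built from the Y complex, which lies on both faces of the envelope, and from the inner ring. Nucleoporins with phenylalanine-glycine repeats fill the channel and bind transport receptors. The receptors are the karyopherins: importins carry cargo inwards, exportins carry it outwards, and the GTPase Ran sets the direction by loading cargo on one side and releasing it on the other. Most mRNA leaves through a different receptor, Nxf1 with Nxt1, and Alyref is an adaptor that hands mRNA to it. Gabpb1 is the partner subunit of Gabpa, the DNA-binding subunit of the ETS factor GABP. In the morula and blastocyst the pores have to be built anew at each cleavage division.

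Because Gabpb1 belongs to a transcription factor with a known short binding core, the members' promoters were searched for the letters CCGGAAG or their reverse complement CTTCCGG. The windows run from 250 bases before to 50 bases after the RefSeq start on GRCm38.p6. A window was found for 34 of the 43 members, and 6 of these hold a match (17.6%): Ipo4, Nup107, Nup155, Nup37, Nup54 and Tnpo3. Of all 27025 genes with a window 9.93% hold one. Of the tested genes with a window 20.8% do, beside 18.75% of the tested members with a window, so the share among members is close to that of expressed genes. The stretches around the match nearest the start of each gene, and around both such matches in Nup107, are printed along the gene's own strand from 5′ to 3′, with the matching letters in capitals.
Nup107, chr10:117792699-117792725, minus strand, 10 bases before the start: ccaggccgcgCTTCCGGgtcgaagggt
Nup107, chr10:117792679-117792705, minus strand, 10 bases after the start: gaagggtgtgCTTCCGGagagcgggaa
Ipo4, chr14:55635677-55635703, minus strand, 9 bases before the start: gccctttccgCCGGAAGttgctgtcgg
Nup155, chr15:8109295-8109321, plus strand, 8 bases before the start: ggaggacgaaCCGGAAGtgcgtcatga
Nup37, chr10:88146987-88147013, plus strand, 5 bases after the start: gccctccgacCCGGAAGcagagcgggc
Nup54, chr5:92435259-92435285, minus strand, 76 bases before the start: aaacacacccCCGGAAGtgatcggtgg
Tnpo3, chr6:29609832-29609858, minus strand, 1 base after the start: cggacggccaCTTCCGGcccggggaag
Nup107 holds 3 matches, all in the reverse complement orientation, the third of them 250 bases before the start at the edge of the window. Nup37 and Tnpo3 hold 2 each, and Ipo4, Nup155 and Nup54 hold 1 each. The letters are a description of the windows and show no binding. In the comparison of morulae labelled Gabpb1 KO with non-KO morulae, the 6 members with a match had a median log2 fold change of -0.36, with 4 of 6 (66.7%) below 0. The 26 tested members whose window holds no match had a median of 0.38, with 6 of 26 (23.1%) below 0. The 9 tested members without a window had a median of 0.22, with 3 of 9 below 0. Over all tested genes that have a window the medians were -0.16 with a match and 0.0037 without, with 59.9% and 49.7% below 0. The 6 members with a match ran from -1.30 (Ipo4) to 0.47 (Nup37), so they did not move as one.

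Levels between genes were compared as FPKM, computed from the counts, the total and the deposited exon length. The median of the mean FPKM was 8.92 over the 41 tested members and 4.02 over all 18410 tested genes, and 32 of the 41 lay above the latter. The highest member was Kpna2 (an importin alpha, the adaptor that links cargo to Kpnb1), with a mean of 131 FPKM. The next were 2 Y complex members, Nup43 with 45.1 and Nup85 with 33.8 FPKM. Ipo5 (importin 5, which carries ribosomal proteins and histones) and Xpo1 (CRM1, the receptor for leucine-rich export signals) followed with 33.04 and 29.9 FPKM. At the low end stood Nup210l with 0.359, Nup210 with 0.456 and Kpna7 with 0.582 FPKM. Nup210 encodes the large membrane nucleoporin, Nup210l is a relative of narrow expression, and Kpna7 is the importin alpha of oocytes and early embryos. Kpna7 was at 1.85 and 0.333 CPM in Alyref KO, 1.57, 0.928 and 1.10 in Alyref cross non-KO, 1.38, 2.31 and 1.70 in labelled Gabpb1 KO and 2.21 and 3.04 in Gabpb1 cross non-KO morulae, and at 1.07 to 2.89 CPM in the 9 blastocysts (median 2.01). It was thus low at both stages, and 4.78% of its exon bases are shared with Arpc1a on the opposite strand, which averaged 78.9 CPM.

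**Figure D1:**
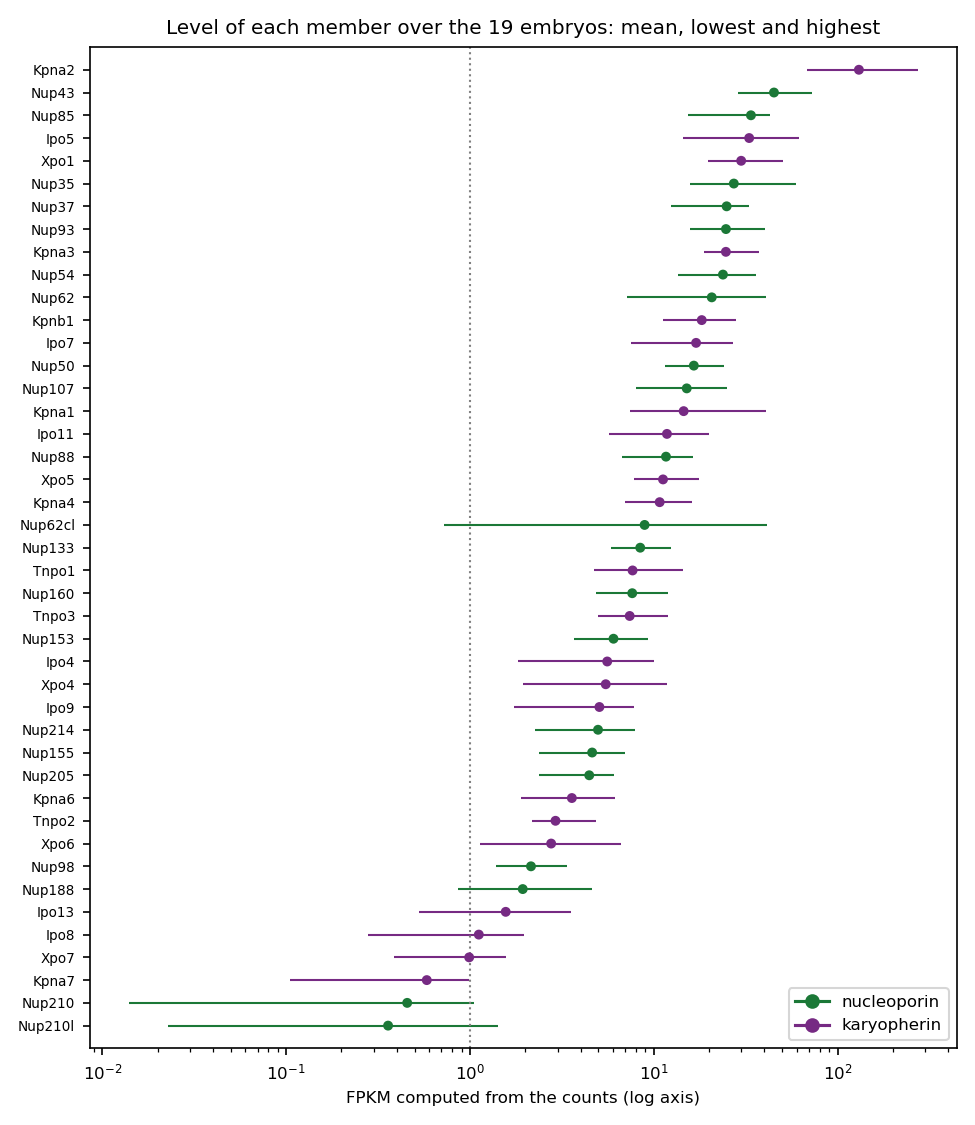
Mean, lowest and highest FPKM of each of the 43 members over the 19 embryos, on a log axis; nucleoporins are green, karyopherins purple, and the dotted line marks 1 FPKM. Kpna2 stands at the top with a mean of 131 FPKM and Nup210l at the bottom with 0.359.

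Pore subunits did not share one level. Within the Y complex mean FPKM ran from 7.64 (Nup160) to 45.1 (Nup43). In the inner ring it ran from 1.94 (Nup188) to 27.3 (Nup35). The channel nucleoporins Nup62 and Nup54 had 20.7 and 23.8 FPKM. Nup214 and Nup88 of the cytoplasmic face had 4.97 and 11.7, Nup153 and Nup50 of the nuclear basket 6.04 and 16.5, and Nup98, which sits on both faces, 2.15 FPKM. Among the importins alpha, Kpna2 was followed by Kpna3 (24.7), Kpna1 (14.5), Kpna4 (10.8) and Kpna6 (3.59 FPKM). Kpnb1, the importin beta that they all use, had 18.2 FPKM. Exportins ran from 0.991 (Xpo7) to 29.9 FPKM (Xpo1), and transportins from 2.92 (Tnpo2) to 7.67 FPKM (Tnpo1).

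Kpna2 varied widely between embryos of 1 group. It stood at 451 and 389 CPM in Alyref KO morulae, 328, 699.7 and 287 in Alyref cross non-KO, 264, 819 and 688 in labelled Gabpb1 KO and 464 and 192 in Gabpb1 cross non-KO morulae, and at 195 to 416 CPM in the 9 blastocysts (median 307). Alyref non-KO morula 2 and labelled Gabpb1 KO morulae 2 and 3 were the highest. Alyref KO morula 2, Alyref non-KO morulae 1 and 3 and labelled Gabpb1 KO morula 1 lay within the blastocyst range. Gabpb1 non-KO morula 2 lay just below that range of Kpna2. Its processed pseudogene Kpna2-ps had between 0.837 and 3.89 CPM, so reads shared with the copy may be split between them. Kpna3 and Kpna4 were steadier. Kpna3 was at 121 and 131 CPM in Alyref KO, 98.8, 95.5 and 94.9 in Alyref cross non-KO, 77.7, 112 and 136 in labelled Gabpb1 KO and 129 and 159 in Gabpb1 cross non-KO morulae, and at 81.3 to 110.5 CPM in the 9 blastocysts (median 96.7). Kpna4 was at 101 and 104 CPM in Alyref KO, 120.1, 130.2 and 81.3 in Alyref cross non-KO, 102, 105 and 104 in labelled Gabpb1 KO and 99.03 and 141 in Gabpb1 cross non-KO morulae, and at 64.3 to 94.01 CPM in the 9 blastocysts (median 84.4). Kpna6 was at 29.04 and 16.8 CPM in Alyref KO, 20.03, 16.4 and 34.8 in Alyref cross non-KO, 39.7, 13.3 and 22.9 in labelled Gabpb1 KO and 20.1 and 23.4 in Gabpb1 cross non-KO morulae, and at 16.96 to 29.6 CPM in the 9 blastocysts (median 23.7). The groups overlapped for Kpna6, and edgeR called Kpna2, Kpna3, Kpna4 and Kpna6 in no contrast of the fit to all 19 embryos.

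Nup62cl, an X-linked relative of Nup62, varied widely: 27.98 and 9.67 CPM in Alyref KO, 8.52, 28.1 and 9.06 in Alyref cross non-KO, 1.55, 5.18 and 58.4 in labelled Gabpb1 KO and 17.7 and 2.21 in Gabpb1 cross non-KO morulae, and 2.28 to 94.6 CPM in the 9 blastocysts (median 13.2). The 3 libraries labelled Gabpb1 KO alone thus ran from below every other embryo to above all but WT blastocyst 3. Nup210l stood at 1.32 and 1.33 CPM in Alyref KO, 1.95, 2.70 and 2.65 in Alyref cross non-KO, 0.775, 6.39 and 8.30 in labelled Gabpb1 KO and 1.07 and 1.83 in Gabpb1 cross non-KO morulae and at 0.134 to 1.94 CPM in the 9 blastocysts (median 1.24). It reached 1 FPKM in 2 embryos alone, labelled Gabpb1 KO morulae 2 and 3, and passed the filter through them. Nup210 stood at 2.77 and 1.93 CPM in Alyref KO, 1.95, 0.169 and 4.86 in Alyref cross non-KO, 7.23, 3.42 and 5.96 in labelled Gabpb1 KO and 3.63 and 1.98 in Gabpb1 cross non-KO morulae and at 3.13 to 10.98 CPM in the 9 blastocysts (median 5.76), with the lowest value in Alyref non-KO morula 2.

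**Figure D2:**
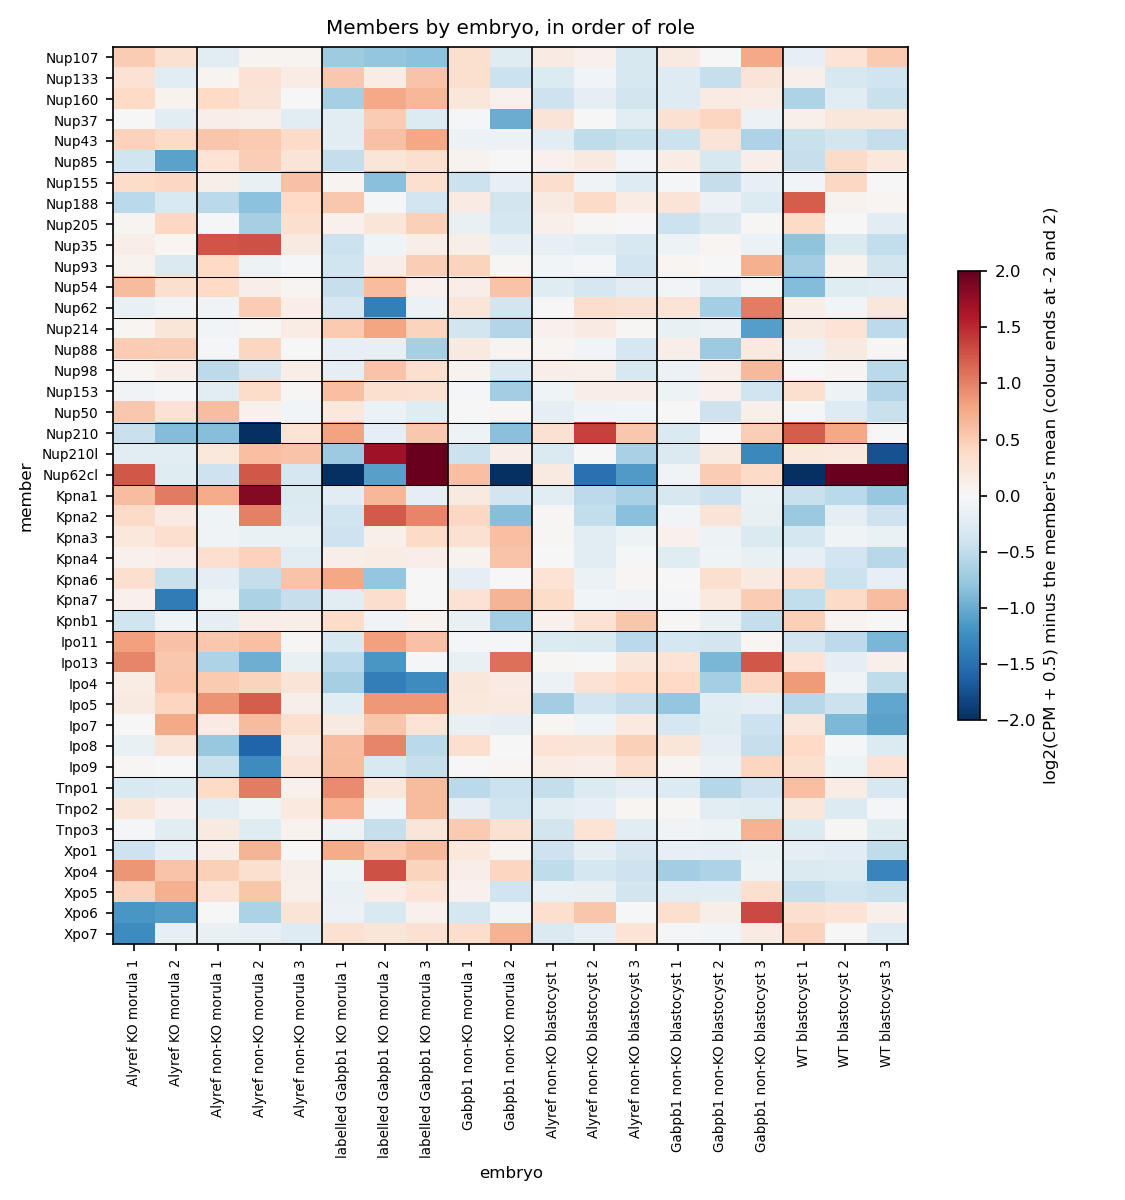
Level of each of the 43 members in each of the 19 embryos, as log2(CPM + 0.5) minus the member's mean over embryos; rows are ordered by role, thin lines separate roles and groups, red is above and blue below the mean. Nup62cl and Nup210l show the widest colours within groups, Nup107 is blue in all 3 morulae labelled Gabpb1 KO, and Nup35 is red in Alyref non-KO morulae 1 and 2.

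Gene counts per embryo ran from 7.49M to 31.5M, where M is megacounts (median 13.6M), spike-in RNA took 0.501 to 1.95% of counts, and no pair of libraries correlated above 0.986. Together the 43 members took 0.244 to 0.407% of gene counts. The nucleoporins summed to 1401 and 1241 CPM in Alyref KO, 1477, 1494 and 1289 in Alyref cross non-KO, 1069.8, 1368 and 1432 in labelled Gabpb1 KO and 1279 and 1074 in Gabpb1 cross non-KO morulae, and to 1033 to 1321 CPM in the 9 blastocysts (median 1151). The karyopherins summed to 2115 and 2303 CPM in Alyref KO, 2252, 3131 and 1919 in Alyref cross non-KO, 2045, 2887 and 2698 in labelled Gabpb1 KO and 2106 and 1811 in Gabpb1 cross non-KO morulae and to 1353 to 1843 CPM in the 9 blastocysts (median 1681). The karyopherin sum was thus higher in 9 of the 10 morulae than in any blastocyst, and Gabpb1 non-KO morula 2 lay among the blastocysts. A sum weighs abundant genes most, and the single genes were mixed. In blastocysts against non-KO morulae over both crosses, 7 of 21 tested karyopherins had a log2 fold change above 0 and 14 below.

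Summed markers of the trophectoderm, the outer layer of the blastocyst, moved with both stage and group. Their 12 genes summed to 1795 and 841 CPM in Alyref KO, 863, 859.6 and 2357 in Alyref cross non-KO, 2928, 578 and 1309 in labelled Gabpb1 KO and 4984 and 3459.9 in Gabpb1 cross non-KO morulae, and to 5169.8 to 8138 CPM in the 9 blastocysts (median 6406). The Gabpb1 cross non-KO morulae therefore lay nearest to the blastocysts, and Alyref non-KO morula 3 and labelled Gabpb1 KO morula 1 stood apart from the other morulae of their groups. The 12 genes did not move as one: by stage in the Alyref cross 5 were called higher and 1 lower in blastocysts. In the Gabpb1 cross 0 were called by stage, with 9 above 0 and 3 below. Transcripts of the 2-cell stage summed to 7.92 and 54.4 CPM in Alyref KO, 29.9, 166 and 0.971 in Alyref cross non-KO, 13.00, 19.3 and 12.8 in labelled Gabpb1 KO and 1.14 and 1.75 in Gabpb1 cross non-KO morulae and to 0.0672 to 4.10 CPM in the 9 blastocysts (median 1.24), highest in Alyref non-KO morula 2. The 10 oocyte genes summed to 33.9 and 27.1 CPM in Alyref KO, 70.1, 79.1 and 71.7 in Alyref cross non-KO, 143, 42.02 and 74.3 in labelled Gabpb1 KO and 70.6 and 56.4 in Gabpb1 cross non-KO morulae and to 85.5 to 189 CPM in the 9 blastocysts (median 133). Ooep made up most of this sum in the blastocysts, at 80.97 to 185 CPM in the 9 blastocysts (median 124), while the oocyte genes Padi6 (log2 fold change -2.54, SE 0.63, edgeR adjusted p = 0.0213) and Zp3 (log2 fold change -3.41, SE 0.79, edgeR adjusted p = 0.0163) were called lower in blastocysts of the Alyref cross. Genes of the inner cell mass and epiblast, the inner cells of the blastocyst, summed to 2265 and 2011 CPM in Alyref KO, 2845, 2980.2 and 3559 in Alyref cross non-KO, 3307, 2942 and 2991 in labelled Gabpb1 KO and 3193 and 2154 in Gabpb1 cross non-KO morulae and to 3077 to 6657 CPM in the 9 blastocysts (median 3889.8), with both Alyref KO morulae below the non-KO morulae of their cross. Dppa5a made up most of this sum in every embryo. It was at 1328 and 1028 CPM in Alyref KO and 1908, 2063 and 2519 in Alyref cross non-KO morulae, and at 2404 to 5965 CPM in the 9 blastocysts (median 3135). Nanog went the other way, at 511 and 478 CPM in Alyref KO and 374, 284 and 361 in Alyref cross non-KO morulae. In the Alyref KO contrast 2 of the 11 genes were above 0 and 9 below, with 0 called. Of the 11 genes 3 were called lower by stage in the Alyref cross and 2 were called between the KO morulae of the crosses. The 8 genes of the primitive endoderm, the other inner lineage, summed to 593 and 575 CPM in Alyref KO, 791, 625 and 529.9 in Alyref cross non-KO, 700.1, 285 and 743 in labelled Gabpb1 KO and 689.9 and 768 in Gabpb1 cross non-KO morulae and to 737 to 1374 CPM in the 9 blastocysts (median 988), lowest in labelled Gabpb1 KO morula 2. Of the 9 cumulus cell markers Fshr was at 0 in all 19 embryos, and Amhr2 was the 1 that passed the filter. Amhr2 had between 1.98 and 23.9 CPM in every embryo and was called lower in blastocysts of the Alyref cross (log2 fold change -1.84, SE 0.55, edgeR adjusted p = 0.0402). These lists move with the groups compared next, and their part in the results was not tested. In whole embryos, fewer cells of a type and less RNA per cell cannot be told apart.

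**Figure D3:**
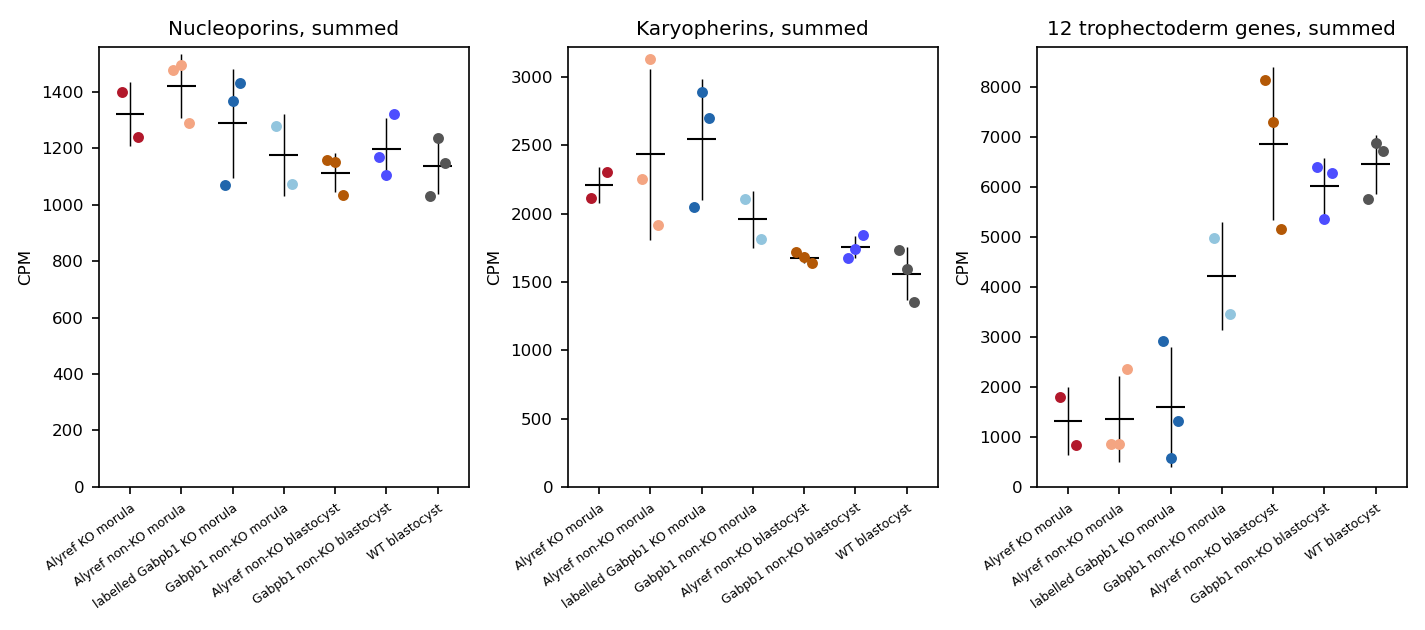
Summed CPM of the nucleoporins, the karyopherins and the 12 trophectoderm markers by group; each point is an embryo, the horizontal line the mean and the vertical line 1 SD. Karyopherins lie lowest in the blastocysts (1353 to 1843 CPM), and trophectoderm markers are highest there.

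The check of the targeted genes came out differently in the 2 crosses. Alyref was at 47.8 and 58.5 CPM in the Alyref KO morulae and at 210.3, 291 and 161 in that cross's non-KO morulae (log2 fold change -2.05, SE 0.30, edgeR adjusted p = 0.0227). Gabpb1 was at 78.2, 259 and 151 CPM in the morulae labelled Gabpb1 KO and at 93.8 and 83.3 in the non-KO morulae (log2 fold change 0.88, SE 0.39, edgeR adjusted p = 0.243). Counts per gene thus show no loss of Gabpb1 transcript in these libraries, and counts over the deleted region were not used here. Every direction given for these 3 libraries rests on their label.

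Alyref KO morulae showed no called change in the 41 tested members. Those with the smallest p were lower in the KO: the Y complex scaffold gene Nup85, the inner ring gene Nup35, the exportins Xpo6 and Xpo1 and the import receptor Tnpo1. edgeR's quasi-likelihood test called 42 of the 18410 genes (0.228%), and 0 of 41 members. At an unadjusted p under 0.05 there were 6 of 41 members (14.6%) beside 12.1% of all genes, and DESeq2 called 1 member, Nup85, among 490 genes. The members' median log2 fold change was -0.06 and that of all genes -0.04, with 19 of 41 members and 46.5% of all genes above 0.

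Nup85 (ENSMUSG00000020739.11, chr11:115564434-115583985, plus strand) was at 83.95 and 52.8 CPM in the KO and 134, 157 and 134 in the non-KO morulae (log2 fold change -1.05, SE 0.29, edgeR adjusted p = 0.142; DESeq2 adjusted p = 0.0306). Both KO embryos lay below all 3 non-KO embryos, and Alyref KO morula 2, but not 1, lay below the range of 81.1 to 145 CPM in the 9 blastocysts (median 122). In the Gabpb1 cross it was at 80.1, 132 and 139 CPM in labelled KO and 116 and 111 in non-KO morulae, without separation. Xpo6 (ENSMUSG00000000131.15, chr7:126101715-126200501, minus strand), which exports actin with profilin, was at 19.01 and 19.7 CPM in the KO and 43.3, 27.8 and 51.7 in the non-KO morulae (log2 fold change -1.08, SE 0.34, edgeR adjusted p = 0.193). It was the only tested member lower in both Alyref KO embryos than in each of the other 17 embryos, where it ran from 27.8 CPM upwards. Those others were 39.9, 34.8 and 46.1 CPM in labelled Gabpb1 KO and 33.9 and 41.8 in Gabpb1 cross non-KO morulae, and 43.4 to 109 CPM in the 9 blastocysts (median 54.4). Such a separation was found for 2.72% of all tested genes and for 1 of 41 members (2.44%), so it is no more common among the members. In the other direction Nup88 of the cytoplasmic face, at 132 and 131 CPM against at most 125 elsewhere, was 1 of 41 beside 3.48% of all genes.

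Nup35 (ENSMUSG00000026999.14, chr2:80617236-80658906, plus strand) was at 95.2 and 88.97 CPM in the KO and at 208, 209.5 and 98.4 in the non-KO morulae (log2 fold change -0.90, SE 0.28, edgeR adjusted p = 0.188). The difference rested on non-KO embryos 1 and 2, since the third, though highest of the rest, was near the KO and the other groups: 64.6, 81.6 and 94.9 CPM in labelled Gabpb1 KO and 94.5 and 77.7 in Gabpb1 cross non-KO morulae, and 49.6 to 89.4 CPM in the 9 blastocysts (median 73.9). Without Alyref non-KO morula 3 Nup35 was the 1 member called (log2 fold change -1.18, edgeR adjusted p = 0.0317), beside 128 of all 18410 genes. Dusp19 on the same strand shares 17.5% of the Nup35 exon bases, so reads there cannot be assigned; it was at 14.8 and 12.3 CPM in the KO and 17.2, 9.62 and 13.9 in the non-KO morulae. Xpo1 (ENSMUSG00000020290.14, chr11:23256041-23298249, plus strand) was at 155 and 181 CPM in the KO and 229, 333 and 207 in the non-KO morulae (log2 fold change -0.61, SE 0.20, edgeR adjusted p = 0.211), with 349, 299 and 326 CPM in labelled Gabpb1 KO and 239 and 215 in Gabpb1 cross non-KO morulae, and 145 to 188 CPM in the 9 blastocysts (median 181). Tnpo1 (ENSMUSG00000009470.17, chr13:98839019-98926384, minus strand), which imports RNA-binding proteins such as hnRNP A1, was at 65.3 and 66.96 CPM in the KO and 107, 165 and 86.4 in the non-KO morulae (log2 fold change -0.85, SE 0.30, edgeR adjusted p = 0.244). For both genes the KO and non-KO morulae did not overlap, and the KO values lay within the range of the blastocysts.

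In morulae labelled Gabpb1 KO 28 of 41 tested members had a log2 fold change above 0 against the non-KO morulae of that cross, but 0 of 41 were called. Among the 28 is Nup210l, which passed the filter only through labelled Gabpb1 KO morulae 2 and 3. Its sign here is therefore not independent of the filter. The members of smallest p were Tnpo1, Nup214 and Tnpo2, above the non-KO morulae, and Ipo4 and Nup107, below them. In the simulated data of this comparison the changed genes were drawn from all tested genes. Of those with a log2 change of 1, 4.48% were called, and of those with a change of 2, 34.3%. The members lie mostly above the median level of tested genes, and their own rate was not simulated. The lack of calls therefore does not show a lack of changes of about this size. Over all genes edgeR called 303 (1.65%), 64 higher and 239 lower. At an unadjusted p under 0.05 there were 9 of 41 members (22.0%) beside 18.9% of all genes. DESeq2 called 4 of 41 members, Nup214 and Tnpo1 higher and Ipo4 and Nup107 lower, beside 1265 of all 18410 genes. The members' median log2 fold change was 0.23 and that of all genes 0.06. The sign of the members' median depended on scaling: on the spike-in RNA it was -0.11, with 18 of 41 members and 35.8% of all genes above 0. On that scaling the median of all genes was -0.24 and calls over all genes were 0 higher and 21 lower.

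Nup107 (ENSMUSG00000052798.13, chr10:117750621-117792705, minus strand), a core subunit of the Y complex, was at 33.7, 32.5 and 31.4 CPM in the morulae labelled Gabpb1 KO and 69.6 and 47.01 in the non-KO morulae (log2 fold change -0.84, SE 0.26, edgeR adjusted p = 0.107; DESeq2 adjusted p = 0.0361). Its window holds 3 of the searched matches, and their part in its level was not tested. The 3 labelled libraries had a mean of 32.5 ± 1.12 CPM (SD, n = 3) and lay below each of the other 16 embryos, the lowest of which had 44.5 CPM. This separation held for 1.72% of all tested genes and 1 of 41 members (2.44%). Its level was 79.6 and 68.8 CPM in Alyref KO and 47.9, 57.7 and 57.8 in Alyref cross non-KO morulae, and 44.5 to 94.2 CPM in the 9 blastocysts (median 62.5). The other Y complex subunits did not share it: their log2 fold changes were 0.44 for Nup133, 0.22 for Nup160, 0.47 for Nup37, 0.57 for Nup43 and 0.05 for Nup85, none of them called.

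Nup214 (ENSMUSG00000001855.15, chr2:31974436-32053975, plus strand), the cytoplasmic nucleoporin that docks Xpo1 and the mRNA helicase Ddx19, was at 66.5, 79.8 and 62.8 CPM in the labelled KO and 35.6 and 30.6 in the non-KO morulae (log2 fold change 1.07, SE 0.29, edgeR adjusted p = 0.0735; DESeq2 adjusted p = 0.0106). All 3 values lay above the other 16 embryos, whose highest was 55.7 CPM, as for 0.788% of all tested genes and 1 of 41 members. The others had 47.5 and 54.96 CPM in Alyref KO and 44.4, 46.9 and 51.02 in Alyref cross non-KO morulae, and 21.2 to 55.7 CPM in the 9 blastocysts (median 47.1). Its partner Nup88 was at 82.7, 82.4 and 58.4 CPM in the labelled KO and 105 and 96.1 in the non-KO morulae, with a log2 fold change of -0.43 that was not called. Transcripts of the 2 partners thus stood on opposite sides of the non-KO morulae.

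Ipo4 (ENSMUSG00000002319.16, chr14:55625400-55635957, minus strand), an importin of histones and the vitamin D receptor, was at 14.9, 8.89 and 9.72 CPM in the labelled KO and 28.2 and 26.9 in the non-KO morulae (log2 fold change -1.30, SE 0.39, edgeR adjusted p = 0.095; DESeq2 adjusted p = 0.0236). The labelled KO values lay below every other morula, which had 26.5 and 35.4 CPM in Alyref KO and 34.8, 32.9 and 28.9 in Alyref cross non-KO embryos. The blastocysts overlapped them, with 14.8 to 43.6 CPM in the 9 blastocysts (median 29.4). Without labelled Gabpb1 KO morula 1 Ipo4 was called by edgeR (log2 fold change -1.57, adjusted p = 0.0482), 1 of 41 members beside 966 of all 18410 genes. AC174678.2 on the same strand covers 55.3% of the Ipo4 exon bases, so the counts of Ipo4 are uncertain. AC174678.2 itself was at 12.4, 14.6 and 8.02 CPM in the labelled KO and 22.3 and 24.3 in the non-KO morulae.

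Tnpo1 was at 156, 95.5 and 126 CPM in the labelled KO and 55.7 and 60.2 in the non-KO morulae (log2 fold change 1.12, SE 0.30, edgeR adjusted p = 0.0696; DESeq2 adjusted p = 0.0124). Tnpo2, its close paralog, was at 29.3, 17.3 and 28.1 CPM in the labelled KO and 15.5 and 13.5 in the non-KO morulae (log2 fold change 0.78, SE 0.27, edgeR adjusted p = 0.14), with A230103J11Rik overlapping 21.2% of its exon bases on the opposite strand. Elsewhere Tnpo2 had 20.99 and 18.9 CPM in Alyref KO and 15.2, 16.9 and 20.7 in Alyref cross non-KO morulae, and 14.7 to 20.97 CPM in the 9 blastocysts (median 15.9). All 3 labelled libraries exceeded both non-KO morulae for each gene, though Alyref cross morulae reached the same levels of Tnpo1. Tnpo3, the import receptor of SR proteins, had a log2 fold change of -0.50 and was not called.

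**Figure D4:**
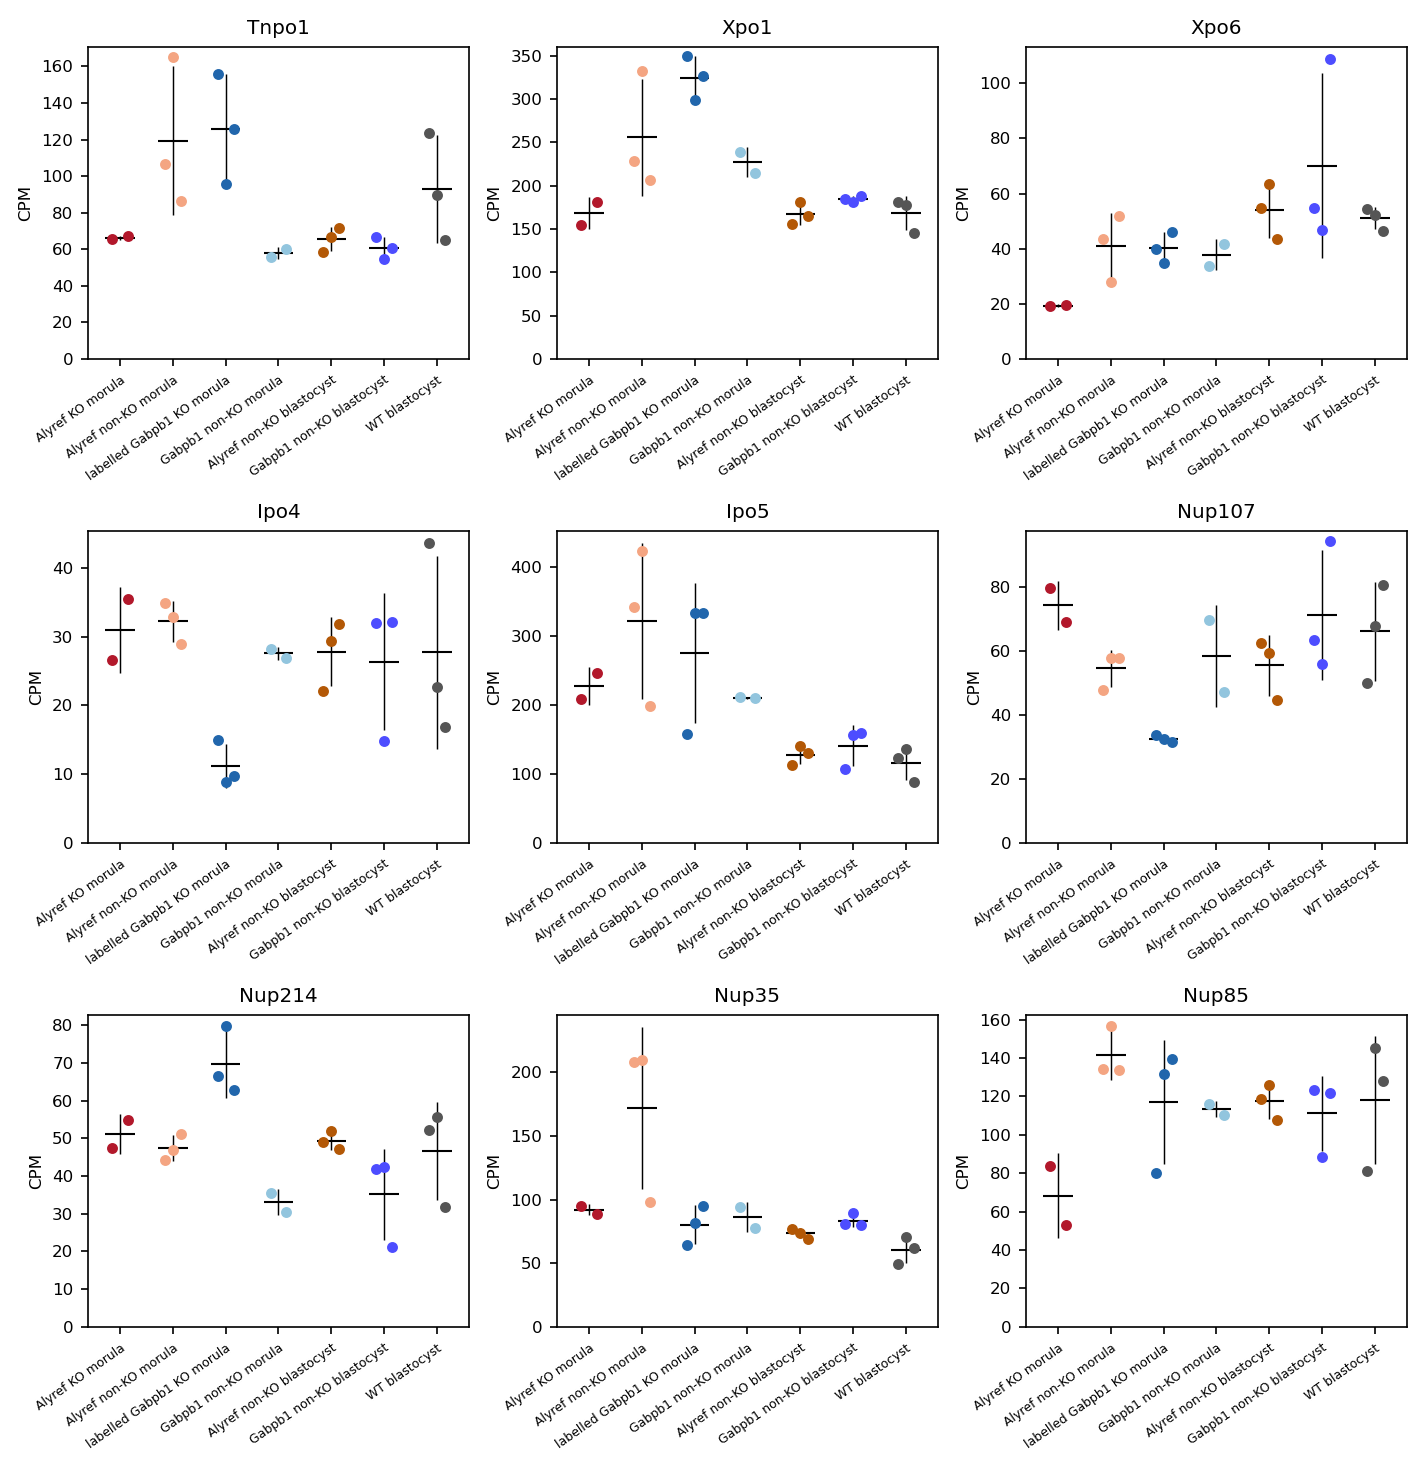
CPM of 9 members by group; each point is an embryo, the horizontal line the mean and the vertical line 1 SD, and each axis starts at 0. Nup107 is lowest and Nup214 highest in the 3 morulae labelled Gabpb1 KO, Xpo6 is lowest in the 2 Alyref KO morulae, and Ipo5 is lower in the blastocysts than in the non-KO morulae.

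The difference between the 2 KO contrasts passed the test for Tnpo1, although neither contrast passed on its own. Its log2 fold change was -0.85 in the Alyref cross (edgeR adjusted p = 0.244) and 1.12 in the Gabpb1 cross (edgeR adjusted p = 0.0696), a difference of 1.97 (SE 0.42, edgeR adjusted p = 0.0389). It was the 1 of 41 members called in this test, where 0.907% of all genes were called, 0.359% with a higher effect in the Gabpb1 cross. At an unadjusted p under 0.05 there were 12 of 41 members (29.3%) beside 16.8% of all genes. Xpo1 missed the threshold with a difference of 1.12 (edgeR adjusted p = 0.0707), as did Nup107 with -1.29 (0.106). The non-KO morulae had Tnpo1 means of 119 ± 40.8 CPM (SD, n = 3) in the Alyref and 57.97 ± 3.21 CPM (SD, n = 2) in the Gabpb1 cross, and the crosses differed by -1.04 in non-KO and by 0.93 in KO morulae on the log2 scale. The call did not hold without Alyref KO morula 1 (edgeR adjusted p = 0.158) or 2 (0.124), Alyref non-KO morula 1 (0.0657) or 2 (0.0696), labelled Gabpb1 KO morula 3 (0.0639), or Gabpb1 non-KO morula 1 (0.116) or 2 (0.142), nor without the filter on low values (0.0529), with the replicate block (0.0512), with the compared groups alone (0.293) or on spike-in scaling (1). These are 11 of its 17 alternatives. The difference itself stayed between 1.60 and 2.16 over these and the other alternatives. Ipo13, an importin that also exports, had effects of 1.42 and -1.20 (difference -2.62, SE 0.78, edgeR adjusted p = 0.117) at low levels: 12.01 and 8.67 CPM in Alyref KO, 3.64, 2.70 and 5.18 in Alyref cross non-KO, 3.87, 2.31 and 5.67 in labelled Gabpb1 KO and 5.19 and 13.01 in Gabpb1 cross non-KO morulae. The 2 Gabpb1 cross non-KO embryos lay far apart. With spike-in scaling 0 genes of the table were called higher and 6 lower, beside 66 and 101.

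**Figure D5:**
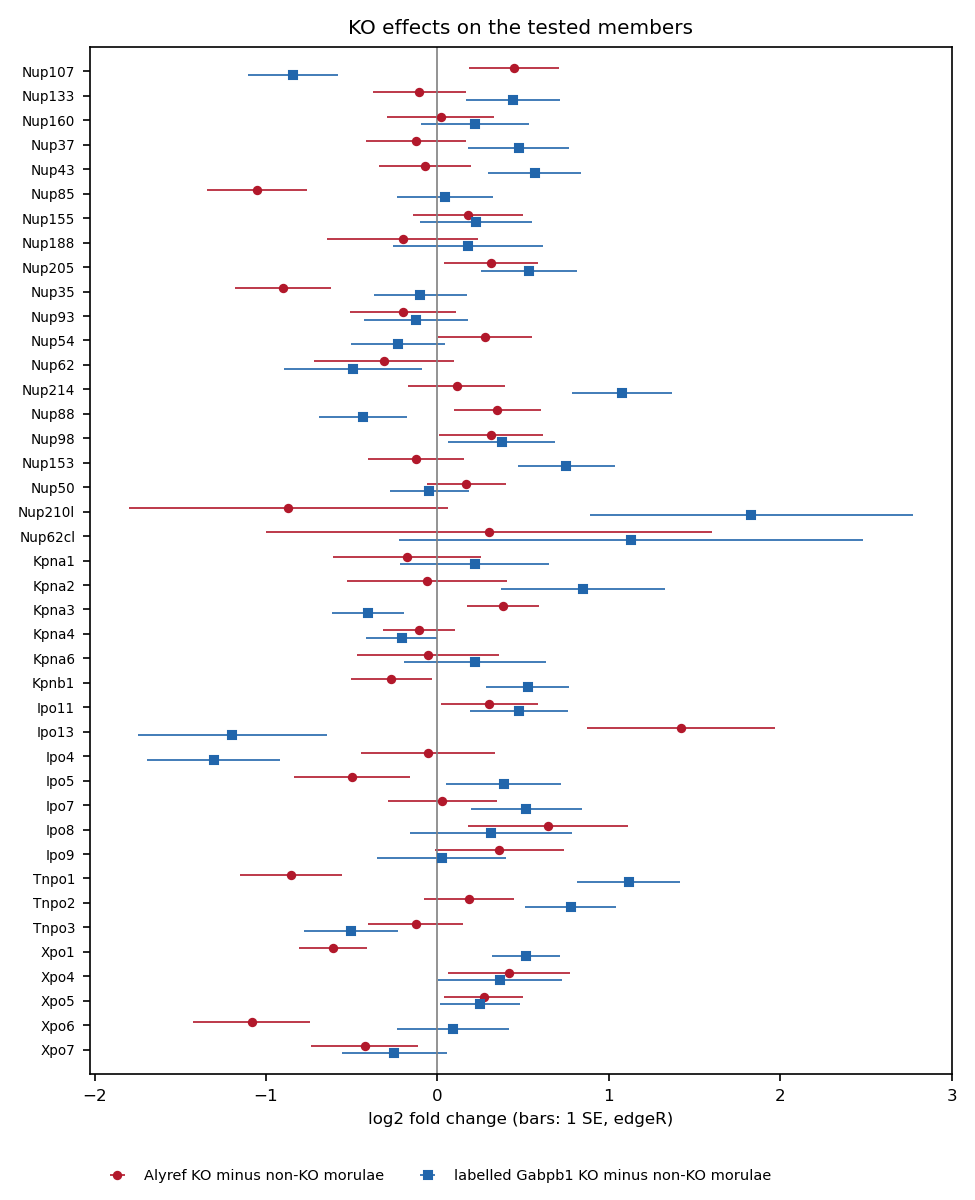
Log2 fold changes of the 41 tested members in Alyref KO (circles) and in labelled Gabpb1 KO morulae (squares) against the non-KO morulae of each cross, with bars of 1 SE; members are in order of role. Tnpo1 lies at -0.85 and 1.12, and Nup107 at 0.45 and -0.84.

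The KO morulae of both crosses were also compared directly, a contrast added after the data had been seen. The labelled Gabpb1 KO morulae had more Xpo1 and less Nup107 and Ipo4 than the Alyref KO morulae, so 3 of 41 members were called (1 higher, 2 lower). Of all genes 4.57% were called, 2.05% higher and 2.51% lower. Xpo1 stood at 349, 299 and 326 CPM in the former and 155 and 181 in the latter (log2 fold change 0.95, SE 0.20, edgeR adjusted p = 0.016). Nup107 stood at 33.7, 32.5 and 31.4 against 79.6 and 68.8 CPM (log2 fold change -1.19, SE 0.26, edgeR adjusted p = 0.0193), and Ipo4 at 14.9, 8.89 and 9.72 against 26.5 and 35.4 CPM (log2 fold change -1.47, SE 0.39, edgeR adjusted p = 0.0428). The groups did not overlap for any of the 3. With each embryo left out in turn 0 to 3 members were called, 0 without Alyref KO morula 1 or 2. Without the filter on low values 1 member was called, and on spike-in scaling 0, when calls over all genes were 0 higher and 5 lower beside 378 and 463.

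Between non-KO morulae and blastocysts of the Alyref cross 6 of 41 members were called, all lower in the blastocysts: the importin Ipo5, the importin alpha Kpna1, the inner ring gene Nup35, the Y complex gene Nup43, the exportin Xpo1 and the transportin Tnpo1. In the same contrast 13.0% of all genes were called and 7.43% were called lower, beside 6 of 41 members (14.6%), all of them lower. At an unadjusted p under 0.05 there were 10 of 41 members (24.4%) beside 31.1% of all genes. The members' median log2 fold change was -0.26 and that of all genes -0.04. On spike-in scaling 18 genes of the table were called higher and 243 lower, beside 1035 and 1367, and 0 members were called.

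Ipo5 (ENSMUSG00000030662.10, chr14:120911224-120947999, plus strand) was at 342, 423 and 199 CPM in the Alyref cross morulae and 113, 139.8 and 131 in its blastocysts (log2 fold change -1.33, SE 0.30, edgeR adjusted p = 0.0151). In the Gabpb1 cross it was at 211 and 209 CPM in the morulae and 107, 157 and 159 in the blastocysts, and in WT blastocysts at 124, 136 and 88.4. Every non-KO morula was thus above every blastocyst. Among the KO morulae it was at 208 and 247 CPM for Alyref and 157, 334 and 333 for labelled Gabpb1 KO, and labelled Gabpb1 KO morula 1 lay within the blastocyst range. Kpna1 (ENSMUSG00000022905.12, chr16:35978750-36037131, plus strand), an importin alpha, was at 187, 397 and 90.97 CPM in the morulae and 95.5, 77.4 and 70.6 in the blastocysts of the Alyref cross (log2 fold change -1.47, SE 0.39, edgeR adjusted p = 0.0269). Its other values were 170.3 and 227 CPM in Alyref KO, 94.8, 176 and 97.96 in labelled Gabpb1 KO and 126 and 85.3 in Gabpb1 cross non-KO morulae, and 65.1 to 102 CPM in the 9 blastocysts (median 81.5). Alyref non-KO morula 2 stood far above the rest, and Alyref non-KO morula 3 lay below the first blastocyst of its cross.

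Nup35 fell from 172 ± 63.7 CPM (SD, n = 3) in the morulae to 73.4 ± 3.87 CPM (SD, n = 3) in the blastocysts (log2 fold change -1.23, SE 0.25, edgeR adjusted p = 0.00994). Nup43 (ENSMUSG00000040034.15, chr10:7667503-7678881, plus strand) was at 163, 159.9 and 145 CPM in the morulae and 95.9, 77.6 and 81.4 in the blastocysts (log2 fold change -0.88, SE 0.24, edgeR adjusted p = 0.0297). It was at 152 and 145 CPM in Alyref KO, 95.98, 167 and 189 in labelled Gabpb1 KO and 102 and 101 in Gabpb1 cross non-KO morulae and at 72.00 to 133 CPM in the 9 blastocysts (median 81.4), so the Gabpb1 cross non-KO morulae lay nearer to the blastocysts. Xpo1 was at 229, 333 and 207 CPM in the morulae and 155, 181 and 165 in the blastocysts (log2 fold change -0.62, SE 0.18, edgeR adjusted p = 0.033), and Tnpo1 at 107, 165 and 86.4 CPM in the morulae and 58.3, 66.9 and 71.4 in the blastocysts (log2 fold change -0.87, SE 0.26, edgeR adjusted p = 0.041). In each of these 4 genes the 3 morulae lay above the 3 blastocysts of the cross. The call of Nup35 held when either of the first 2 blastocysts was left out and no other did. Without Alyref non-KO morula 2 there were 0 members called, beside 346 of all 18410 genes. Without Alyref non-KO morula 3 there were 10 members called, 2 higher and 8 lower in the blastocysts. In that fit 4560 of all genes were called, 2193 higher and 2367 lower.

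The Gabpb1 cross gave 0 called members and 0% of all genes called in the same comparison. At an unadjusted p under 0.05 there were 4 of 41 members (9.76%) and 6.72% of all genes, and DESeq2 called 0 members. The log2 fold changes were -0.58 for Ipo5, -0.30 for Xpo1, -0.21 for Kpna1, -0.04 for Nup35, -0.09 for Nup43 and 0.07 for Tnpo1. In the test of the difference between the crosses' stage effects 0 of 41 members and 0.00543% of all genes (1 gene) were called, with 4 members (9.76%) at an unadjusted p under 0.05 beside 13.8% of all genes. DESeq2 called 0 members among 342 genes. The smallest p was that of Nup35 (difference 1.18, SE 0.37, edgeR adjusted p = 0.237), which was called at 1.46 (edgeR adjusted p = 0.0198) without Alyref non-KO morula 3. In that fit 1 of 41 members and 702 of all 18410 genes were called.

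Over both crosses 1 of 41 members was called, Ipo5 (log2 fold change -0.95, SE 0.22, edgeR adjusted p = 0.0313), beside 4.36% of all genes, 2.66% lower in blastocysts. Xpo1 (-0.46, 0.0558), Nup35 (-0.64, 0.0566) and Xpo4 (-0.74, 0.077) followed with adjusted p just above the threshold. Leaving out 1 embryo ended the call of Ipo5 for 9 of the 11 embryos (edgeR adjusted p up to 0.112), the exceptions being Alyref non-KO morula 3 and Gabpb1 non-KO blastocyst 2, while DESeq2 called 7 members among 2311 genes. By a rule added after the data had been seen, 4 of 41 members (9.76%) were lower in all 9 blastocysts, WT included, than in all 5 non-KO morulae, beside 1.71% of all genes: Ipo5, Xpo1, Xpo4 and Nup54. In the other direction it was 0 of 41 members beside 1.91% of all genes. Xpo4, a receptor that exports eIF5A, was at 75.8, 67.9 and 58.8 CPM in Alyref cross and 59.5 and 73.3 in Gabpb1 cross non-KO morulae and at 21.3 to 50.4 CPM in the 9 blastocysts (median 40.6). Nup54 of the channel was at 101, 84.4 and 79.7 CPM in Alyref cross and 84.2 and 114 in Gabpb1 cross non-KO morulae and at 41.9 to 74.8 CPM in the 9 blastocysts (median 64.96). Scaled on the spike-in RNA, 0 of 41 members were above 0 beside 16.9% of all genes. The members' median was -0.72 beside -0.57 for all genes, with 14 genes of the table called higher and 816 lower beside 313 and 490.

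Non-KO embryos of the crosses were compared with each other and with WT embryos. Of the Gabpb1 cross non-KO morulae against those of the Alyref cross, 0 of 41 members and 1.86% of all genes were called by edgeR, with 7 members (17.1%) at an unadjusted p under 0.05 beside 22.4% of all genes. DESeq2 called 2 of 41 members beside 1694 of all 18410 genes. Lowest in p were Nup35 (log2 fold change -0.999, SE 0.28, edgeR adjusted p = 0.0718) and Tnpo1 (log2 fold change -1.04, SE 0.30, edgeR adjusted p = 0.0753), both lower in the Gabpb1 cross. Without Alyref non-KO morula 3 these and Kpna1 were called, 3 of 41 members beside 2435 of all 18410 genes. Non-KO blastocysts against WT blastocysts gave 0 of 41 members and 0% of all genes, with 2 members (Tnpo1 and Nup62cl) at an unadjusted p under 0.05, beside 4.55% of all genes, and 0 called by DESeq2. Tnpo1 was at 58.3, 66.9 and 71.4 CPM in Alyref cross, 66.9, 54.6 and 60.6 in Gabpb1 cross and 124, 89.7 and 65.1 in WT blastocysts, and the groups overlapped.

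Genes that work with the members but have other names were followed in 5 lists with 39 tested genes in all: nucleoporins of other names (11), karyopherins of other names (4), the Ran cycle (7), mRNA export at the pore (9) and the nuclear lamina with its linker proteins (8). edgeR called 0 of 39 in the Alyref KO contrast, with 6 at an unadjusted p under 0.05 and 0 called by DESeq2. It called 0 of 39 in the labelled Gabpb1 KO contrast, with 9 at an unadjusted p under 0.05 and 2 called by DESeq2. Their medians were -0.24 and 0.05. The shares of all genes at an unadjusted p under 0.05 were 12.1% and 18.9%. Between the KO morulae of the crosses 5 of 39 were called, beside 4.57% of all genes. Nxt1, the partner of the mRNA export receptor, was lower in the labelled Gabpb1 KO at 42.7, 21.5 and 24.8 CPM against 86.6 and 78.03 in Alyref KO (log2 fold change -1.47, SE 0.27, edgeR adjusted p = 0.00686). Lower too was Lmnb1, a B-type lamin, at 15.8, 16.8 and 13.1 against 43.96 and 28.7 CPM (log2 fold change -1.25, SE 0.30, edgeR adjusted p = 0.0266). Higher were the membrane nucleoporin Ndc1, at 97.1, 161 and 113 against 52.7 and 54.1 CPM (log2 fold change 1.21, SE 0.26, edgeR adjusted p = 0.0166), Rangap1, which activates GTP hydrolysis by Ran (0.88, edgeR adjusted p = 0.0435), and Ranbp2 of the cytoplasmic filaments (0.85, 0.0496).

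By stage in the Alyref cross 6 of the 39 were called, 1 higher and 5 lower in blastocysts, a share near the 13.0% of all genes called. The A-type lamin gene Lmna was the 1 that rose, from 40.1, 30.03 and 62.6 to 124, 119.6 and 97.8 CPM (log2 fold change 1.36, SE 0.25, edgeR adjusted p = 0.0078). Lbr, the lamin B receptor, fell (-0.87, edgeR adjusted p = 0.0244), as did the export gene Nxt2 (-1.59, 0.0336) and the nucleoporin Aaas (-0.80, 0.0354). With both crosses together Lmna was the 1 of 39 called, beside 4.36% of all genes (log2 fold change 0.77, SE 0.19, edgeR adjusted p = 0.035), and its Gabpb1 cross non-KO morulae, at 141 and 158 CPM, were already in the blastocyst range of 97.8 to 203 CPM in the 9 blastocysts (median 148).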

How the data were processed

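The authors deposited 1 table of raw counts per gene and embryo, which its name calls FPKM; the deposited values are whole numbers with unequal column totals. The submitters' processing notes list Trimmomatic, Trim Galore, cutadapt, STAR, featureCounts and mm10, and the strand setting is not given in the sources used here. The 92 spike-in rows were kept out of library sizes. A gene was tested with a computed FPKM of 1 or more in at least 2 embryos, which kept 18410 genes. edgeR 4.0.16 (R 4.3.3) fitted 1 mean per group to all 19 embryos with TMM scaling and its quasi-likelihood test. P-values were adjusted by Benjamini-Hochberg over all tested genes, and genes under 0.05 were called. CPM use the TMM-scaled totals. DESeq2 1.42.0 was an alternative, with other scalings, filters, a replicate block, the compared groups alone and each embryo left out. Every member could be named; values of each morula and the lowest, median and highest blastocyst are given for called members, for the 5 of smallest p in a KO contrast with fewer calls, for the 3 highest and 3 lowest and for Kpna genes. Members, lists and rules were chosen with earlier results of these data known. P-values measure the spread between single embryos, and reads without molecular identifiers are not independent molecules. Promoter windows are from RefSeq GRCm38.p6. The method was tested on simulated data with changed genes in the Gabpb1 KO comparison, of which it called 4.48% at a log2 change of 1, 34.3% at 2 and 66.7% at 3.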

Additional observations from a re-analysis of the deposited data

Results flagged for a closer look

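Tnpo1, a transportin, had log2 fold changes of opposite sign in the KO contrasts of the 2 crosses: -0.85 in Alyref KO (edgeR adjusted p = 0.244) and 1.12 in labelled Gabpb1 KO morulae (edgeR adjusted p = 0.0696), neither of them called. The difference of 1.97 passed the test of the difference itself (edgeR adjusted p = 0.0389), and that call was lost in 11 of 17 alternatives (edgeR and DESeq2 adjusted p from 0.00111 to 1). It was higher in all 3 morulae labelled Gabpb1 KO than in both non-KO morulae of that cross, and lower in both Alyref KO morulae than in all 3 non-KO morulae. Gabpb1 transcript was not lower in the libraries labelled Gabpb1 KO, so the direction there rests on the label.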

How the results depend on the processing

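Counts of called members moved with the settings, and so did counts over all genes. By stage in the Alyref cross, leaving out 1 embryo at a time gave 346 to 4560 called genes of 18410, beside 2402 with all 19 embryos. DESeq2 called 1 in the Alyref KO contrast, 4 in the labelled Gabpb1 KO contrast, 4 in the difference of the KO effects, 7 between the KO morulae of the crosses, 2 between the non-KO morulae and 7 by stage over both crosses. Of all 18410 genes it called 490, 1265, 894, 1697, 1694 and 2311 in these contrasts, in the same order. Spike-in scaling gave 0 in the difference of the KO effects, 0 between KO morulae, 0 by stage in the Alyref cross and 2 over both crosses, and fits to the compared groups alone gave 0, 0, 0 and 2. Without the filter on low values there were 0, 1 and 3 in the first 3 of these. Leaving out 1 embryo at a time gave 0 to 1 members in either KO contrast, 0 to 2 in their difference, 0 to 3 between KO morulae, 0 to 10 by stage in the Alyref cross, 0 to 7 over both crosses, 0 to 1 in the difference of the stage effects and 0 to 3 between non-KO morulae. By stage in the Gabpb1 cross and against WT blastocysts it was 0 throughout. With the replicate block 1 member (Nup214) was called in the labelled Gabpb1 KO contrast and 0 in the difference of the KO effects; deviations of same-numbered embryos correlated by -0.102 to 0.162, so the numbers do not pair the embryos. Directions were recomputed for members named in a contrast in which they were called or of smallest p, and these kept their direction. Fold changes of other members did not all do so. By stage in the Gabpb1 cross 0 of 41 members were above 0 on spike-in scaling, and 9.18% of all genes were. On TMM scaling it was 19 of 41 members and 51.6% of all genes, so Tnpo1 (0.07) was among those that turned. The cause of these moves was not tested, and some of the fits hold fewer embryos.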
